A study of Mus musculus with 11 samples.

Results

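The SLAM receptors and the SAP-family adaptors are 8 genes, taken by symbol from a table of 48593 genes: the receptors Slamf1, Cd48, Ly9, Cd84, Slamf6 and Slamf7, and the adaptors Sh2d1a (SAP) and Sh2d1b1 (EAT-2). The transcripts come from sorted germinal center B cells of mouse spleen, taken as B220+, PNA+ and CD95+ cells at day 12 after an intraperitoneal dose of sheep red blood cells. The 3 CBP-KO libraries came from Crebbpfl/fl;Ep300+/+;Cg1cre/+ mice, the 3 p300-KO libraries from Crebbp+/+;Ep300fl/fl;Cg1cre/+ mice and the 5 WT libraries from Crebbp+/+;Ep300+/+;Cg1cre/+ mice. CBP and p300 are paralogous lysine acetyltransferases that act as transcriptional coactivators. All 3 groups carried Cg1cre/+, a Cre driven by the immunoglobulin gamma 1 constant region locus, which acts in B cells after activation, so each knockout allele is removed only in cells that have expressed it. The labels describe the WT mice as littermates bred from the Crebbp line, and none as a littermate of a p300-KO mouse, so a difference of cross cannot be told apart from the loss of Ep300. Age was not given in the labels, and each library bears a number of its own.

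SLAM family receptors are paired surface proteins of lymphocytes, and most of them bind the same receptor on the neighbouring cell. Phosphorylated tyrosines in their tails dock the small SH2-domain adaptors SAP and EAT-2, and without adaptors the same sites can recruit inhibitory phosphatases. In germinal centers this system is best known for the adhesion of T follicular helper cells to B cells, which needs SAP in the T cell, while EAT-2 is best known from natural killer cells and other innate cells.

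The docking sites were read from the GENCODE M21 coding sequences (GRCm38, the same build as mm10). The motif searched was a threonine codon, any codon, a tyrosine codon, any 2 codons and a valine or isoleucine codon. Slamf1, Ly9, Cd84 and Slamf6 each held 2 such runs and Slamf7 held 1, and these 9 runs began between 79.9% and 97.1% of the way along the coding sequence, where the cytoplasmic tail is encoded. Neither adaptor held a run. Cd48, whose protein is held in the membrane by a lipid anchor and has no cytoplasmic tail, held 1 run that began at 43.8% of its coding sequence. The last run of each tailed receptor is shown as an example of such a site, with the 18 bases of the motif in capitals and the flanking bases in lower case.
Slamf1, chr1:171799582-171799611, plus strand: cccaccACAGTTTATGCCAGTGTGacactg
Ly9, chr1:171593432-171593461, minus strand: tcaaatACAATCTACTGCTCTGTGcagaag
Cd84, chr1:171885595-171885624, plus strand: gtgaccACCATTTATTCCTCAGTGcagctt
Slamf6, chr1:171941658-171941687, plus strand: tccatgACAATTTACTCCATAGTTaatcat
Slamf7, chr1:171636321-171636350, minus strand: ccaaacACATTTTATTCCACTGTGcagatc
Each of these 5 runs lay within 1 coding exon. The reads are counted per gene, so no measurement here separates transcripts with and without these sites.

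Values below are the deposited normalized read counts (reads divided by 1 size factor per library), and levels set between genes are divided by the length of a gene's merged exons. Depth was between 53550726 and 132861266 reads a library. Of 13 germinal center B cell markers 3 were lower in CBP-KO against WT and 2 higher and 2 lower in p300-KO against WT, with Mki67 at 250234 or more in every library, and the defining T cell transcripts Cd3e, Cd3d and Cd3g reached at most 5.12, 10.3 and 10.2. Ep300 averaged 14466 ± 600.4 in p300-KO and 21268 ± 1276 in WT, while Crebbp averaged 8247 ± 612 in CBP-KO and 8866 ± 743 in WT (SD, n = 3 and 5), so a count per gene does not check the CBP-KO labels. p300-KO_18 held both Xist (98751) and Y-linked transcripts (sum 9852), and WT_46 had the highest values of several macrophage transcripts, such as C1qb at 108. Results that change without them are given with and without them.

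The receptor genes stood at very unlike levels. In WT, Cd48 averaged 5266 ± 263 normalized reads per kb of exon, Slamf7 4675 ± 211, Ly9 3358 ± 163, Slamf6 1118 ± 88.2, Slamf1 969.7 ± 56.5 and Cd84 343 ± 42.6 (SD, n = 5). The adaptor Sh2d1b1 averaged 268 ± 73.6 per kb in WT, near Cd84 by this length, and Sh2d1a was at 0. By merged exons, the single-library values of Cd48 and Slamf7 overlapped, as did those of Slamf6 and Slamf1 and those of Cd84 and Sh2d1b1. The other neighbours in this order did not. Cd48 lay above 95.5% of tested genes per kb, and Cd84 above 51.0%. With the longest annotated transcript as the length, Slamf7 (5383 per kb) and Cd48 (5279 per kb) change places. Other pairs then stand further apart, with Cd84 at 627 ± 77.9 and Sh2d1b1 at 268 ± 73.6, and Slamf6 at 2114 ± 167 and Slamf1 at 1351 ± 78.7.

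**Figure D1:**
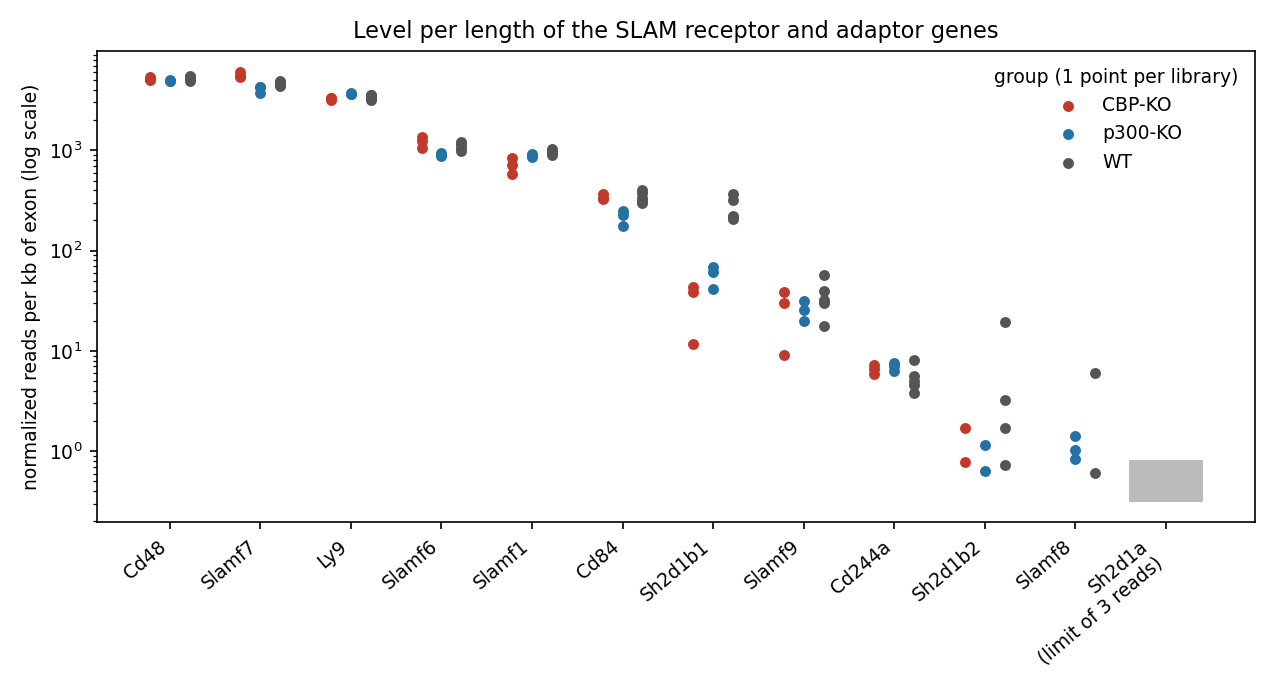
Normalized reads per kb of merged exon on a log scale for the members and 4 further family genes, 1 point per library, with CBP-KO left, p300-KO in the middle and WT right. Libraries at 0 are not drawn, and the grey box for Sh2d1a spans the level that 3 reads would give in each library. The points of the 6 receptors keep to a narrow band in each group, and Sh2d1b1 is lower in both knockouts than in WT.

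By merged exons, the order of the means in p300-KO was that of WT, and CBP-KO differed from it in the leading pair. In CBP-KO the highest mean was that of Slamf7 at 5599.7 ± 358 per kb, ahead of Cd48 at 5189 ± 198 per kb, with overlapping libraries. In p300-KO, Cd48 led at 4933 ± 90.3 per kb, ahead of Slamf7 at 4124 ± 314 per kb, and these libraries did not overlap. Sh2d1b1 was lowest of the measured members in both, at 31.3 ± 17.2 per kb in CBP-KO and 57.4 ± 14.1 per kb in p300-KO (SD, n = 3 each). With the longest annotated transcript as the length, CBP-KO had the same order as WT. In p300-KO the leading means were then Cd48 (4946 per kb), Ly9 (4880 per kb) and Slamf7 (4748 per kb).

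Which members differ with the loss of each acetyltransferase was tested with limma across 16515 genes whose mean was at least 10, and a gene is called where its adjusted p is below 0.05. Of the 8 members 7 passed this filter, which uses the mean over all libraries, and Sh2d1a did not. In CBP-KO against WT, 1 of 7 was called higher (Slamf7), 2 lower (Slamf1 and Sh2d1b1) and 4 were not called. Over all tested genes 8.36% were called there, 3.48% higher and 4.88% lower. In p300-KO against WT, 0 of 7 were called higher, 3 lower (Cd84, Slamf6 and Sh2d1b1) and 4 were not called. Over all tested genes 11.9% were called, 5.84% higher and 6.09% lower. In CBP-KO against p300-KO, 3 of 7 were called higher (Cd84, Slamf6 and Slamf7), 0 lower and 4 were not called. Over all tested genes 9.42% were called, 4.79% higher and 4.63% lower. The groups did not overlap for 3 members in the first of these comparisons, for 5 in the second and for 5 in the third, against 16.9%, 19% and 31% of tested genes. The median log2 fold change over the 7 was -0.02, -0.18 and 0.07 in the same order, and over the 16515 genes 0.01, -0.01 and -0.0033. The 2 comparisons with WT share the same 5 WT libraries.

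**Figure D2:**
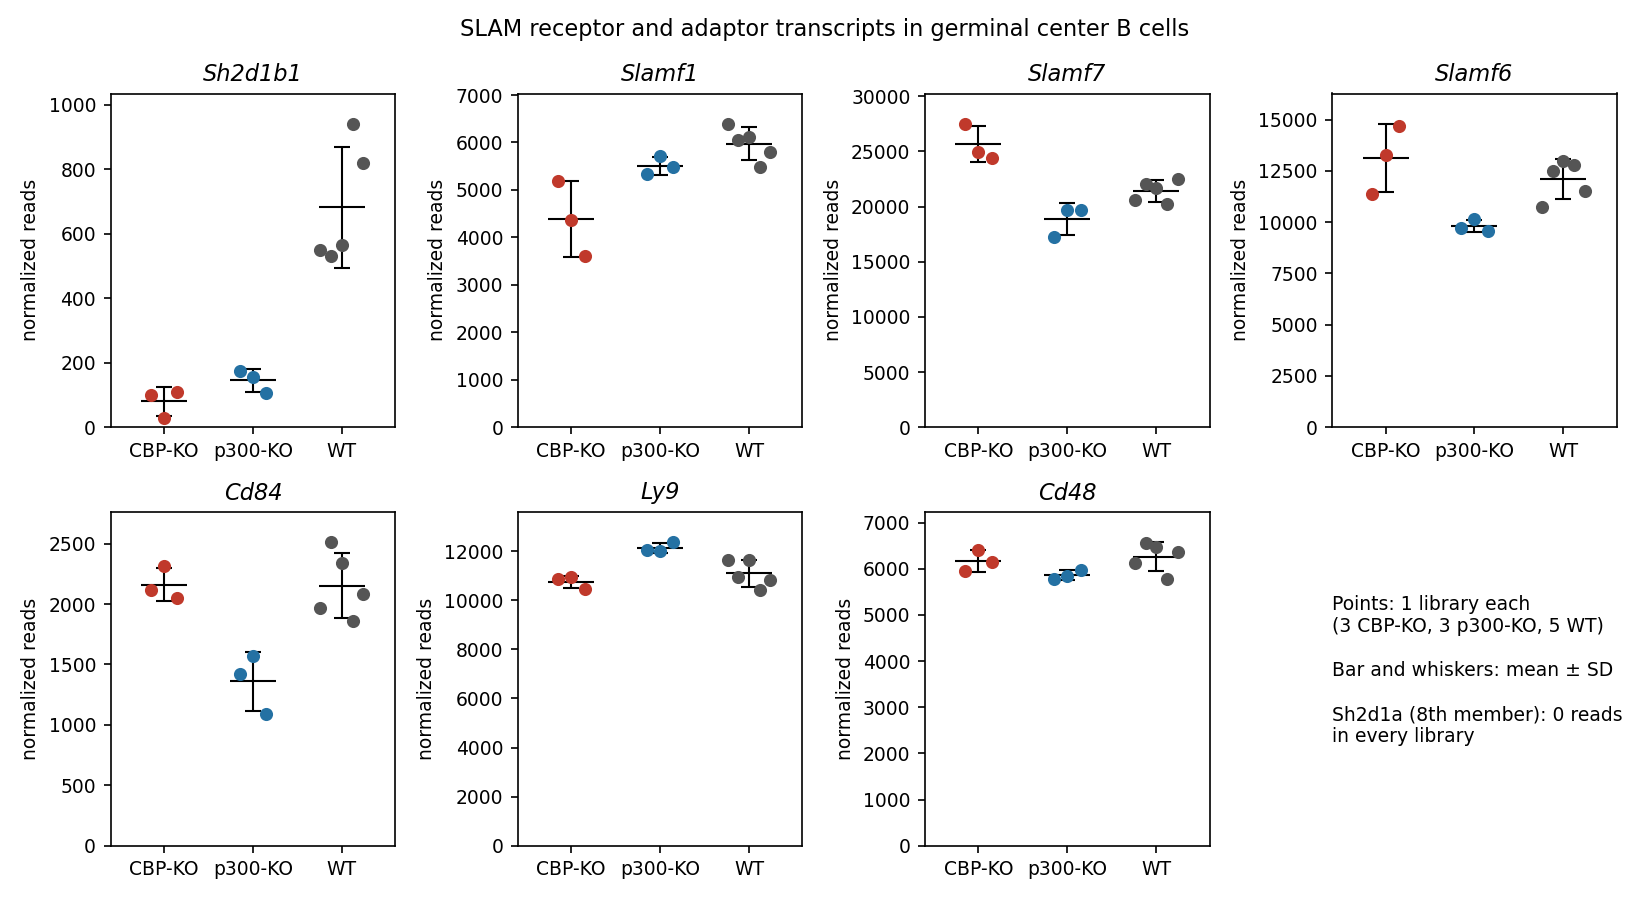
Normalized reads of the 7 measured members, 1 panel per gene, with 1 point per library and the mean ± SD as bars, CBP-KO left, p300-KO in the middle and WT right. Sh2d1b1 is low in both knockouts, Slamf1 lies below WT in CBP-KO, Slamf7 above WT in CBP-KO, and Cd84 and Slamf6 below WT in p300-KO.

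Slamf1 (chr1:171767127-171801184) encodes SLAM, the receptor that gave the family its name and that binds itself. It was lower in CBP-KO, and among the receptors it was the one called lower there. CBP-KO_1 held 5199, CBP-KO_53 held 4371 and CBP-KO_55 held 3603. In p300-KO the values were 5339 (p300-KO_18), 5717 (p300-KO_287) and 5474 (p300-KO_289), and in WT 6393 (WT_4), 6054 (WT_7), 6123 (WT_41), 5474 (WT_46) and 5802 (WT_288). Every CBP-KO library lay below every p300-KO and WT library, and the p300-KO and WT libraries overlapped. The fold change in CBP-KO against WT was log2 -0.46 (SE 0.09, limma adjusted p = 0.0108), or 73.6% of the WT mean, with an exact two-sided permutation p of 0.0179, the smallest that 3 against 5 libraries can give. In p300-KO against WT it was log2 -0.11 (adjusted p = 0.502), with a 95% interval between -0.32 and 0.09. The direct difference, CBP-KO against p300-KO, was log2 -0.34 (adjusted p = 0.0606) and was not called, so the lower Slamf1 is not shown to be particular to CBP-KO. This difference was called in 5 of 23 alternatives, among them the fit without CBP-KO_1 (log2 -0.47, adjusted p = 0.00874).

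Slamf7 (chr1:171632403-171653035), the receptor known as CRACC or CS1 and abundant on plasma cells, bears a single docking run of the kind shown above and signals through EAT-2 rather than SAP. It was higher in CBP-KO than in both other groups. CBP-KO_1 held 27494, CBP-KO_53 24985 and CBP-KO_55 24411, while p300-KO_18 held 17216, p300-KO_287 19697 and p300-KO_289 19707. The WT libraries held 20564, 22036, 21661, 20229 and 22494, in the order WT_4, WT_7, WT_41, WT_46 and WT_288, which is kept below. The 3 groups did not overlap, with CBP-KO highest and p300-KO lowest. CBP-KO against WT gave log2 0.26 (SE 0.06, limma adjusted p = 0.0219), and this call is lost without CBP-KO_1 (adjusted p = 0.0916) or CBP-KO_53 (adjusted p = 0.064). p300-KO against WT gave log2 -0.18 (SE 0.06, adjusted p = 0.0769), not called, though it is called with library weights (adjusted p = 0.0211) and by DESeq2 (adjusted p = 0.049). Without p300-KO_18 this fold change was log2 -0.12 (limma adjusted p = 0.295). The direct difference between the knockouts was log2 0.44 (SE 0.07, adjusted p = 0.00212). Of 8 tested plasma cell markers, 1 was higher and 1 lower in CBP-KO against WT, and 3 were higher and 1 lower in p300-KO against WT. The summed value of that list was between 86475 and 99219.8 in CBP-KO, between 102473 and 115002 in p300-KO, where Slamf7 was lowest, and between 74666 and 96841 in WT. An antisense gene overlaps exons of Slamf7, and the libraries keep no strand, so their reads cannot be told apart.

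Slamf6 (chr1:171917515-171953170), also called Ly108, is a homophilic receptor of T and B cells. It was lower in p300-KO. Its values were 11381, 13297 and 14709 in CBP-KO_1, CBP-KO_53 and CBP-KO_55, and 9737, 10143 and 9581 in p300-KO_18, p300-KO_287 and p300-KO_289. In WT they were 10731, 12521, 12982, 12793 and 11517. All p300-KO libraries lay below all others, and the CBP-KO and WT libraries overlapped, with CBP-KO the most widely spread. p300-KO against WT gave log2 -0.30 (SE 0.08, limma adjusted p = 0.0341; exact permutation p = 0.0357). This call is lost without p300-KO_18 (adjusted p = 0.0971), p300-KO_287 (0.0674), p300-KO_289 (0.111), WT_7 (0.0676), WT_41 (0.0683) or WT_46 (0.0551), without WT_46 and p300-KO_18 together (0.131), and after quantile normalization (log2 -0.26, adjusted p = 0.0732). CBP-KO against WT gave log2 0.11 (adjusted p = 0.474; 95% interval between -0.07 and 0.29). CBP-KO against p300-KO gave log2 0.41 (adjusted p = 0.0153), lost without CBP-KO_53 (0.0569), CBP-KO_55 (0.0692) or p300-KO_18 (0.0527).

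Cd84 (chr1:171839697-171890718), a homophilic receptor that takes part in lasting contact between T follicular helper and B cells, showed the largest fold change of the receptors. It was lower in p300-KO and close to WT in CBP-KO. Its values were 2120.3, 2315 and 2048 in CBP-KO, 1419.5, 1566 and 1091 in p300-KO, and 1970.5, 2511, 2339, 1861 and 2085 in WT, in the library order above. No p300-KO library reached the lowest library of the other groups. p300-KO against WT gave log2 -0.67 (SE 0.12, limma adjusted p = 0.00371; exact permutation p = 0.0179), or 63.1% of the WT mean. The direct difference, CBP-KO against p300-KO, was log2 0.68 (SE 0.14, adjusted p = 0.00802), and both calls held under every alternative run. CBP-KO against WT gave log2 0.01 (adjusted p = 0.974), with a 95% interval between -0.25 and 0.27.

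Ly9 (chr1:171588624-171607410), known as CD229, is a homophilic receptor with the longest coding sequence of the 6 receptor genes, 1962 bp. It held 10874, 10939 and 10474 in CBP-KO, 12050.3, 12005 and 12367 in p300-KO, and 11662, 10949.6, 11652, 10435 and 10824 in WT. Every p300-KO library was above every other library, by a small margin over the highest WT library. p300-KO against WT gave log2 0.13 (SE 0.05, limma adjusted p = 0.109; exact permutation p = 0.0357), which is not called but is called after quantile normalization (adjusted p = 0.0302). CBP-KO against WT gave log2 -0.04 (adjusted p = 0.665), and CBP-KO against p300-KO log2 -0.17 (adjusted p = 0.0643), which was not called but was called without WT_46 (adjusted p = 0.0463).

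Cd48 (chr1:171682009-171705258) encodes the lipid-anchored ligand of CD2 and of the receptor 2B4. It varied least of the receptors in fold change, and no comparison called it. It held 5947, 6415 and 6146 in CBP-KO, 5773, 5841 and 5983 in p300-KO, and 6134, 6562, 6466, 5779 and 6364 in WT, with overlapping groups throughout. The fold change was log2 -0.02 in CBP-KO against WT (limma adjusted p = 0.873; 95% interval between -0.14 and 0.09). It was log2 -0.09 in p300-KO against WT (adjusted p = 0.301; interval between -0.21 and 0.02), and log2 0.07 between the knockouts (adjusted p = 0.494).

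**Figure D3:**
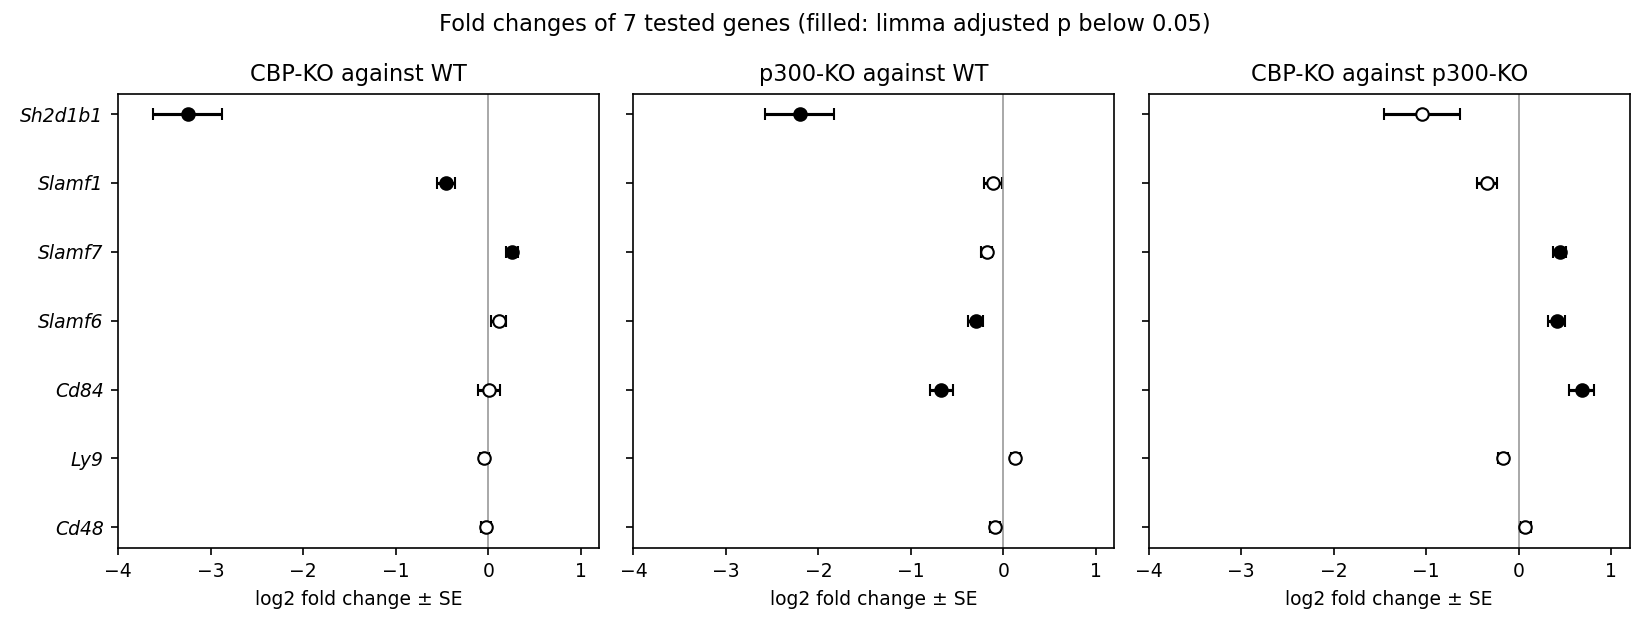
Log2 fold changes with their SE for the 7 measured members in CBP-KO against WT, p300-KO against WT and CBP-KO against p300-KO, with filled points where the limma adjusted p is below 0.05. Sh2d1b1 stands far from the receptors in both comparisons with WT, and Slamf7, Slamf6 and Cd84 lie right of 0 in the direct comparison.

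The summed level of the 6 receptors overlapped between each knockout and WT, while its makeup differed. Every p300-KO library (highest 15025) lay below every CBP-KO library (lowest 15939). The sum was 16313 ± 325 per kb in CBP-KO, 14746 ± 428 in p300-KO and 15729 ± 594 in WT (SD, n = 3, 3 and 5). Slamf7 made up 34.3% ± 1.76 of this sum in CBP-KO, 27.9% ± 1.34 in p300-KO and 29.7% ± 0.793 in WT. Slamf1 made up 4.36% ± 0.72 in CBP-KO, 6.07% ± 0.145 in p300-KO and 6.17% ± 0.301 in WT. The ratio of Slamf1 to Slamf7 per kb was 0.127 ± 0.0157 in CBP-KO, 0.218 ± 0.0121 in p300-KO and 0.208 ± 0.0147 in WT, and no CBP-KO library (highest 0.141) reached the lowest WT library (0.192). The sum and these shares follow from the single-gene values above and were not tested apart from them.

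Sh2d1b1 (chr1:170277320-170286769) encodes EAT-2, the adaptor that carries signals from Slamf7 and other receptors of the family. It was the member that moved most, and it was lower in both knockouts. CBP-KO_1 held 99.0, CBP-KO_53 held 29.5 and CBP-KO_55 held 110.3. The p300-KO values were 175 (p300-KO_18), 157 (p300-KO_287) and 106 (p300-KO_289), and those of WT 549 (WT_4), 529 (WT_7), 566 (WT_41), 940.2 (WT_46) and 820.2 (WT_288). All 6 knockout libraries lay below every WT library, by a wide gap, and the knockouts overlapped with each other. The counts behind the knockout values were 82, 30 and 101 reads in CBP-KO and 241, 196 and 83 reads in p300-KO, against 364 to 1401 reads in WT.

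In CBP-KO, Sh2d1b1 averaged 79.6 ± 43.7 against 681 ± 187 in WT (SD, n = 3 and 5), or 11.7% of the WT mean. The fold change was log2 -3.25 (SE 0.37, limma adjusted p = 0.000405; exact permutation p = 0.0179). In p300-KO it averaged 146 ± 35.8, or 21.4% of the WT mean, with log2 -2.20 (SE 0.37, adjusted p = 0.00247; exact permutation p = 0.0179). Both calls held under every alternative run, with adjusted p at most 0.00162 for CBP-KO and at most 0.0171 for p300-KO. CBP-KO against p300-KO gave log2 -1.04 (SE 0.41, adjusted p = 0.136), not called, with a 95% interval between -1.94 and -0.15 for this gene alone. Without CBP-KO_53, the lowest library, this difference was log2 -0.45 (adjusted p = 0.409), and CBP-KO against WT was log2 -2.65 (adjusted p = 0.00136). In these bulk samples, fewer cells that express a gene and less RNA per cell cannot be told apart.

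Sh2d1b1 has a tandem copy, Sh2d1b2, which ends 23.7 kb before it on the same strand. The coding sequences match at 359 of 396 bases (90.7%), and 13.4% of the 50-base windows of the Sh2d1b1 transcript also occur in Sh2d1b2, so a share of reads could be assigned to either. Sh2d1b2 itself averaged 2.11 in CBP-KO, 1.503 in p300-KO and 12.9 in WT, where WT_46 held 49.9 and the next library 8.20. Its mean over all libraries was below 10 and it was not tested. The 250 bases before the RefSeq start of Sh2d1b1 are shown because this gene moved most and moved in both knockouts (chr1:170277068-170277317, GRCm38.p6, plus strand). Capitals mark the longest stretch that also occurs in the same window of Sh2d1b2, 58 bases from position -68 to -11 before the start.
Sh2d1b1 upstream sequence: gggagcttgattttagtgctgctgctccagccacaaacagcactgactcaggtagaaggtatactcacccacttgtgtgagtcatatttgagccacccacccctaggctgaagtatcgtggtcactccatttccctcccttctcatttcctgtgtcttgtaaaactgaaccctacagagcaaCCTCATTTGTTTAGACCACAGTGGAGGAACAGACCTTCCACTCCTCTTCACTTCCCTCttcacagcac
RefSeq windows were found for 6 of the 8 members and not for Ly9 and Sh2d1a. These were searched on both strands for CANNTG (E-box), TGACG (the core of the site for CREB, a partner of CBP and p300) and AGGAAG (ETS). The Sh2d1b1 window holds 2 E-boxes, CACTTG from -181 and CATTTG from -65, of which CATTTG lies in the capitals. The Sh2d1b2 window also holds CACTTG (from -242) and CATTTG (from -123). At least 1 E-box occurs in each of the 6 member windows and in 66.2% of all 32851 windows. No window of the 6 members holds TGACG, which 17.8% of windows hold. AGGAAG occurs in those of Slamf1 and Slamf7 (29.5% of windows). A match in these windows is a description of sequence and not a binding site.

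EAT-2 is known from natural killer and myeloid cells, and markers of both were measured beside it. Of 12 natural killer cell markers 2 were tested, Tbx21 and Prf1, and neither passed against WT in either knockout. Prf1 averaged 25.1 ± 14.9 in CBP-KO, 54.9 ± 13.2 in p300-KO and 56.4 ± 19.5 in WT (log2 -1.21 in CBP-KO, limma adjusted p = 0.0665). The summed natural killer list was between 501 and 1046 in CBP-KO, between 1041 and 1593 in p300-KO and between 563 and 2295 in WT. Tbx21 made up most of this sum, and each untested marker of the list had a mean below 10 over all libraries. Klrb1c was not tested and averaged 2.92 in CBP-KO, 6.25 in p300-KO and 11.3 in WT. Ncr1 reached at most 2.56 and Gzmb and Klra8 were at 0 in every library. Of 15 macrophage and monocyte markers 9 were tested, with 4 lower in CBP-KO and 1 lower in p300-KO. Their summed value was between 1969 and 2887 in CBP-KO, between 2427 and 3270.5 in p300-KO, and between 3529.7 and 9438 in WT, so that every knockout library lay below every WT library. Mpeg1 was the largest single part of this sum in each group. Without Mpeg1 the sum was between 866 and 1175 in CBP-KO, between 1161 and 1657 in p300-KO and between 1304 and 3011 in WT, and the p300-KO and WT libraries overlapped. Mpeg1 was the marker called lower in p300-KO (log2 -1.18, limma adjusted p = 0.0147). Adgre1, C1qa, Cd68 and Vcam1 stood at log2 0.22, 0.17, 0.06 and 0.40 there, and C1qb, C1qc, Csf1r and Lyz2 below 0, all not called. In CBP-KO against WT every tested marker of this list stood below 0, with a median of log2 -1.63. Those called lower in CBP-KO were C1qc (log2 -3.49), C1qb (-3.47), Adgre1 (-1.63) and Mpeg1 (-1.29). Of 10 dendritic cell markers 4 were tested and Flt3 was called lower in both knockouts, at 3067 ± 273 in CBP-KO, 2552 ± 68.0 in p300-KO and 4651 ± 584 in WT. Itgax, Xcr1 and Zbtb46 were not called against WT, and their directions were mixed. Xcr1 stood at log2 0.321 in CBP-KO and below 0 in p300-KO. Zbtb46 stood at log2 0.703 in p300-KO and below 0 in CBP-KO, and Itgax was below 0 in both. Neutrophil markers gave 0 tested genes of 7, with a sum of at most 8.72. The part of these cells in the lower Sh2d1b1 was not tested. Without WT_46 and p300-KO_18 together, both calls of Sh2d1b1 held.

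**Figure D4:**
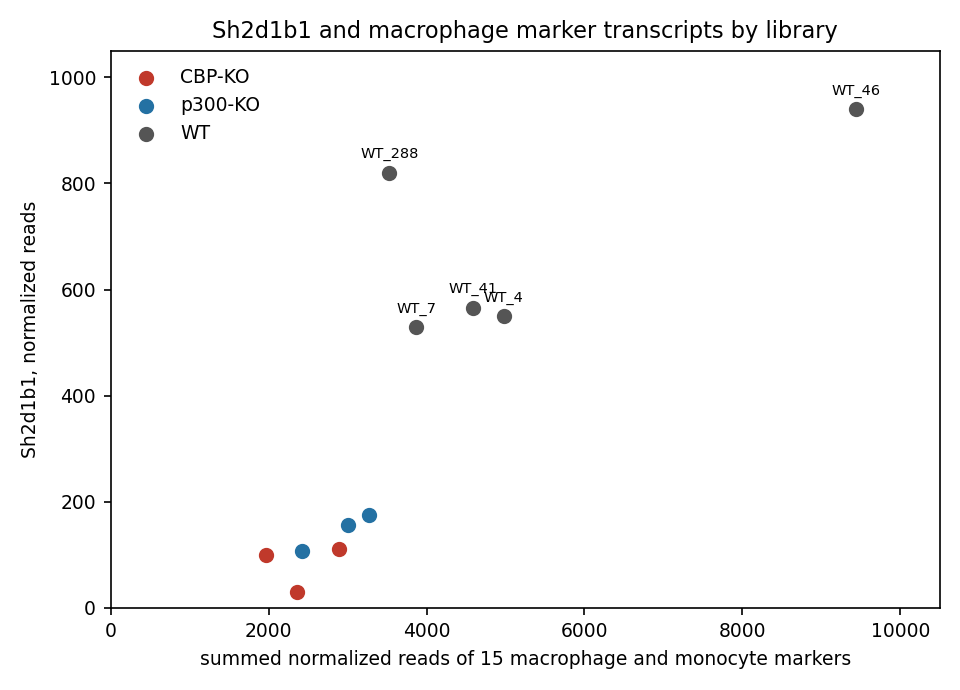
Normalized reads of Sh2d1b1 against the summed normalized reads of 15 macrophage and monocyte markers, 1 point per library, with the WT libraries named. The knockout libraries lie at 175 or below on the Sh2d1b1 axis and the WT libraries at 529 or above. WT_46 is highest on both axes (Sh2d1b1 940.2, marker sum 9438), and WT_288 has Sh2d1b1 at 820.2 and the lowest WT marker sum, 3529.7.

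Sh2d1a (chrX:42502453-42529330), which encodes SAP, had 0 reads in all 11 libraries. The level that 3 reads would give, the limit that a count of 0 allows, was between 1.76 and 4.36 normalized reads, and this covers counting error only. The neighbours Thoc2, Xiap and Stag2 were counted at 8696 or more in every library. Tenm1, which shares 26.6% of the exon bases of Sh2d1a on the opposite strand, was also at 0 in every library, and whether reads of Sh2d1a were left uncounted was not tested. T cells are the usual source of SAP in germinal centers. Of 18 T cell markers 10 were tested, with 0 higher and 4 lower in CBP-KO and with 1 higher and 2 lower in p300-KO. Their sum was between 21869 and 24933 in CBP-KO, between 24284 and 26064 in p300-KO, and between 31978 and 38722 in WT, made up mostly of Cxcr5, Lck and Cd2, of which Cxcr5 and Cd2 are also expressed by mouse B cells. Lck averaged 9718 in WT, while Cd3e, Cd3d, Cd3g and Trac reached at most 5.12, 10.3, 10.2 and 18.1 in any library. Which cells the Lck transcripts came from was not tested.

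The other genes of the family stood at low levels. Cd244a, the receptor 2B4 that binds CD48, averaged 32.02 ± 3.24 in CBP-KO, 34.0 ± 3.14 in p300-KO and 26.4 ± 7.92 in WT, and was not called. Its log2 fold changes were 0.31 in CBP-KO and 0.39 in p300-KO, with 95% intervals between -0.29 and 0.91 and between -0.21 and 0.99. Slamf9 averaged 34.2 ± 20.1 in CBP-KO, 33.7 ± 7.69 in p300-KO and 46.4 ± 18.8 in WT, and was not called either. Slamf8 was at 0 in every CBP-KO library, at 3.37 in p300-KO and at 4.05 in WT, and was not tested.

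Of 19 kinases, phosphatases and effectors that work with the SLAM receptors, 17 were tested. In CBP-KO against WT 0 were higher and 4 were lower, and in p300-KO against WT 0 were higher and 5 were lower. Over all tested genes 3.48% were called higher and 4.88% lower in CBP-KO, and 5.84% higher and 6.09% lower in p300-KO. The median log2 fold change over the 17 was -0.13 in CBP-KO and -0.11 in p300-KO, beside 0.01 and -0.01 over all tested genes. Fyn, the kinase that SAP brings to the receptors, averaged 4858 ± 439 in CBP-KO, 6083 ± 464 in p300-KO and 7170.2 ± 599.6 in WT. It was lower in CBP-KO (log2 -0.56, limma adjusted p = 0.00125), not called in p300-KO (log2 -0.24, adjusted p = 0.0778), and lower in CBP-KO than in p300-KO (log2 -0.33, adjusted p = 0.0404). Lck, another Src-family kinase and also on the T cell list, averaged 5100.04 ± 667 in CBP-KO, 5271 ± 751 in p300-KO and 9718 ± 897 in WT (log2 -0.93 and -0.89). Inpp5d, the phosphatase SHIP1 that can be recruited to the receptor tails, was lower in both (log2 -0.27, adjusted p = 0.00316, and log2 -0.19, adjusted p = 0.0168). Plcg1 was lower in CBP-KO (log2 -0.34, adjusted p = 0.0437), and Inpp4b (log2 -0.76), Bcl10 (log2 -0.25) and Lyn (log2 -0.30) were lower in p300-KO. Ptpn6 and Ptpn11, the phosphatases SHP-1 and SHP-2, were not called in either.

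The 6 receptor genes stand side by side in 365 kb of chromosome 1, and Sh2d1b1 ends 1302 kb before the first of them. Genes around them were set beside them. Of 16 tested neighbours of the receptor cluster, 1 was higher and 1 lower in CBP-KO and 2 were higher and 0 lower in p300-KO. Over all tested genes 8.36% were called in CBP-KO and 11.9% in p300-KO, in either direction. Vangl2, a planar cell polarity gene just beyond Slamf6, averaged 353 ± 44.8 in CBP-KO, 412 ± 33.4 in p300-KO and 226 ± 26.2 in WT, and was higher in both (log2 0.64, limma adjusted p = 0.0103, and log2 0.87, adjusted p = 0.00132), opposite in direction to Slamf6 in p300-KO. Of 7 tested neighbours of the adaptor genes, none passed in CBP-KO (lowest limma adjusted p = 0.0938, Olfml2b) and 1 was lower in p300-KO, Uap1 (log2 -0.61, adjusted p = 0.000308). Uhmk1, the tested gene next to the adaptor genes on one side, stood at log2 0.14 in CBP-KO and -0.13 in p300-KO, and Olfml2b on the other side at log2 1.31 and 1.18, all not called. Within the receptor cluster, Cd48, between Slamf7 and Slamf1, was called in neither knockout. In p300-KO against WT, Ly9, Slamf7, Cd48, Slamf1, Cd84 and Slamf6, in this order, stood at log2 0.13, -0.18, -0.09, -0.11, -0.67 and -0.30. In CBP-KO against WT they stood at log2 -0.04, 0.26, -0.02, -0.46, 0.01 and 0.11. Whether a stretch of the chromosome moved together was not tested.

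**Figure D5:**
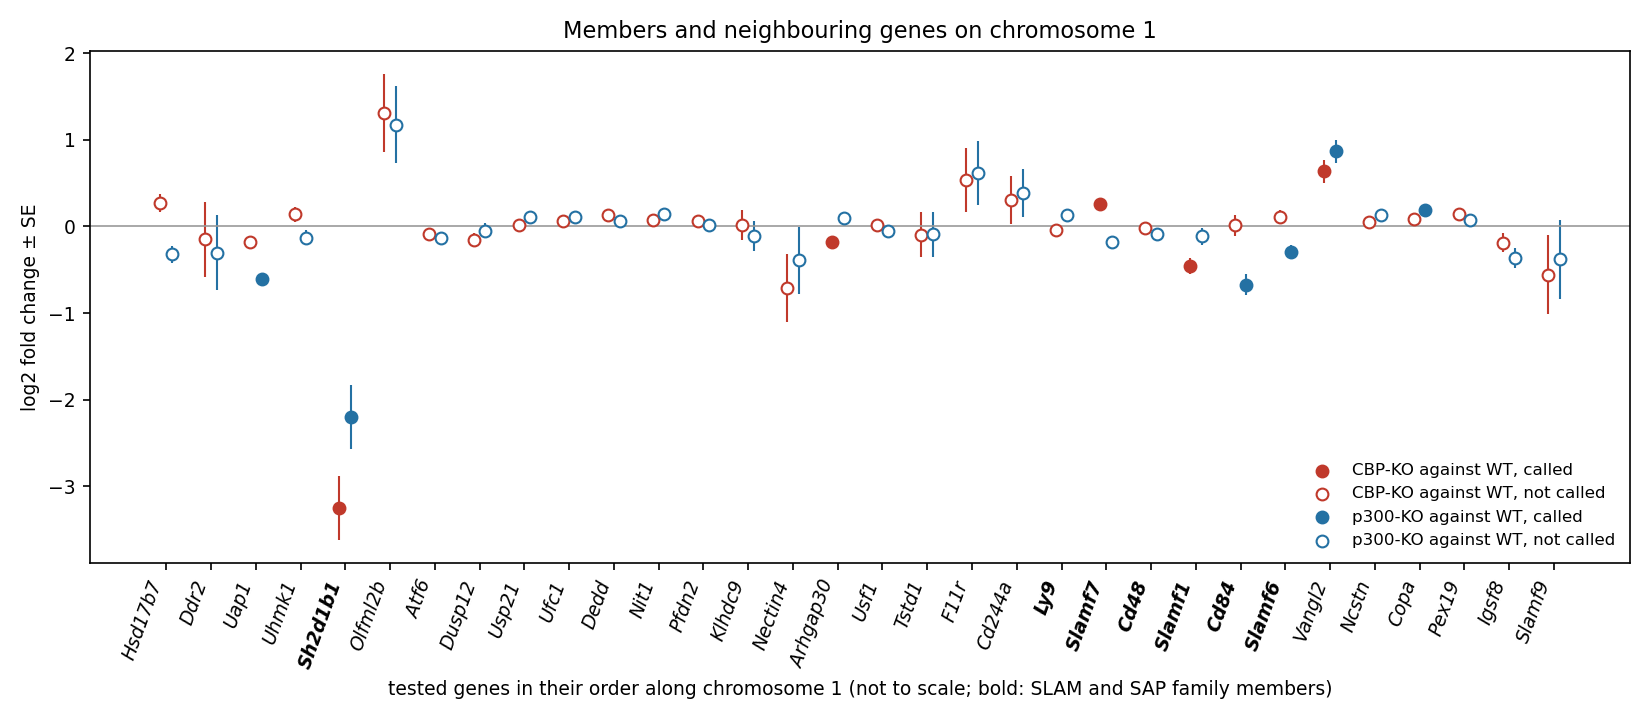
Log2 fold changes with SE against WT of the tested members (bold) and their neighbours in their order along chromosome 1, CBP-KO in red left of p300-KO in blue, filled where called. Sh2d1b1 at log2 -3.25 and -2.20 lies far below the genes on either side of it.

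For each measured member the 3 genes with the most similar profile over the 11 libraries were taken by Pearson's r of the log2 values. The 10801 genes compared had a mean of at least 50 and left out predicted genes, pseudogenes and immunoglobulin and T cell receptor genes. These libraries share the 3 groups, so an r mostly reflects the group means and is a description. For Slamf1 they were H2-DMa (r = 0.973, Spearman's rho = 0.991), Sipa1 (0.968, 0.936) and H2-Aa (0.964, 0.982), of which H2-DMa and H2-Aa encode parts of the MHC class II presentation system. H2-Aa averaged 88863 in CBP-KO, 130798 in p300-KO and 143972 in WT. For Sh2d1b1 the closest was Zfp446 (r = 0.981, rho = 0.927), at 761 in CBP-KO, 889.8 in p300-KO and 1084 in WT, followed by Jdp2 (0.951, 0.873) and Ssbp4 (0.950, 0.945). For Cd84 the closest was Il5ra, a cytokine receptor chain (r = 0.946, rho = 0.936), at 408 in CBP-KO, 182 in p300-KO and 394 in WT. For Slamf7 it was Rrm2b (0.973, 0.955), for Ly9 M6pr (0.949, 0.900), for Slamf6 Eppk1 (0.923, 0.955) and for Cd48 Add3 (0.922, 0.864). No member was among the closest genes of another member.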

How the data were processed

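RNA was measured in 11 libraries, grouped by their genotype labels. A TruSeq v2 kit, which keeps no strand, was used on total RNA, per the labels. The submitters' processing notes name CASAVA 1.8, HISAT2, featureCounts, DESeq2 and mm10 and give no settings. Each deposited signal value is a gene's read count after the authors' scaling by the size factor of its library. Whole reads were recovered for 100% of values within 1e-06, and the count tests on them were alternatives. Genes with a mean of at least 10 (16515 of 48593) were tested with limma 3.58.1 with a variance trend on log2(value + 1), in 1 fit of 3 groups, two-sided, with Benjamini-Hochberg adjustment over all genes. All adjusted p of genes are limma's unless another tool is named. Members also had exact permutation tests, unadjusted. Each library is labelled as a separate mouse number, and p-values measure the spread between these libraries. Levels per kb used merged exons of GENCODE M21, available for 99.2% of tested genes.

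Members, lists and tests were chosen with earlier results of these data known. Named genes were the members, the other family genes, up to 4 genes per list and comparison with called genes of smallest p first, and the 3 most similar genes per member. Alternatives were voom weights, edgeR 4.0.16, DESeq2 1.42.0, a pseudocount of 5, no filter, a mean of at least 50, TMM and quantile normalization, 2 groups only, library weights, a sex covariate (read from Xist and Y-linked transcripts), each library left out, and WT_46 with p300-KO_18 left out. The procedure was tested on simulated data. R 4.3.3, Python 3.11.15, pandas 2.3.3, Biopython 1.88 and matplotlib 3.10.9 were used.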

Additional observations from a re-analysis of the deposited data

Results flagged for a closer look

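Among the 5 WT libraries, 2 family genes had a library far from the others, by the gap to the nearest library as a share of the range (critical value 0.71 for 5 libraries). Sh2d1b2, the tandem copy of the EAT-2 gene, stood at 49.9 normalized reads in WT_46, against 8.20 in the next library. Slamf8, a receptor of myeloid cells, stood at 18.4 in WT_46, against 1.86 in the next. Of 11 genes examined in this way, 2 met the criterion, and chance flags about 1 group in 20 where values are normally distributed. Both flagged genes rest on few reads (in WT_46, 14 for Slamf8 and 38 for Sh2d1b2), so this rate need not hold for them. The macrophage and monocyte marker sum was also highest in WT_46, at 9438 against at most 4979.6 in the other WT libraries, and its part in these values was not tested. Sh2d1b1 was at 940.2 in WT_46 and at 820.2 in WT_288 and was not far enough from the rest to meet the criterion.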

How the results depend on the processing

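Over 483 refits of the 21 fold changes of measured members, 452 kept their direction and their side of the threshold, 13 lost a call, 13 gained one and 5 changed sign. The sign changes were of values near 0 in CBP-KO against WT: Cd48 lay between log2 -0.049 and 0.0056 when 1 library was left out, above 0 without CBP-KO_1. Cd84 lay between log2 -0.039 and 0.070, below 0 without CBP-KO_53, WT_4 or WT_46, and at -0.039 without WT_46 and p300-KO_18. The number of called members was 2 to 3 over the fits that left out 1 library in CBP-KO against WT, where 3 were called, 2 to 3 in p300-KO against WT, where 3 were called, and 2 to 4 in CBP-KO against p300-KO, where 3 were called. The last of these was 5 with DESeq2, 5 with quantile normalization and 6 with library weights (the cause was not tested), while calls over all genes there were 2337, 1599 and 2808 under these settings against 1556. Slamf1, Ly9 and Sh2d1b1 account for the added calls. Of the gained calls, 2 were of Slamf7 in p300-KO against WT, 1 of Ly9 in p300-KO against WT and 10 of Slamf1, Ly9 and Sh2d1b1 in CBP-KO against p300-KO. Exact permutation tests gave p below 0.05 for 3 members in CBP-KO against WT, with 3 to 3 when 1 library was left out. They gave 5 in p300-KO against WT, with 3 to 4 when 1 library was left out, where fewer libraries also raise the smallest p. The 5 include Ly9 and Slamf7, which limma did not call. In all libraries the members that passed were those whose groups did not overlap, as was so for 16.9% and 19% of tested genes. The permutation test itself was not run over all genes. Slamf1, Cd84 and Sh2d1b1 kept their calls against WT in every refit. Few reads limit the values of Slamf8 and Sh2d1b2, which were not tested. No paired analysis was possible because no library number occurs in more than 1 group.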

Other observations

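The sex of the mice was not labelled, and 4 libraries were high in Y-linked transcripts: CBP-KO_1, p300-KO_287, WT_41 and WT_288. The other 7 are called Xist-high here and in the sex covariate, p300-KO_18 among them, although it also held Y-linked transcripts (sum 9852), and whether it is of 1 mouse was not tested. Within CBP-KO, CBP-KO_1 had the highest Slamf1 and Slamf7 and the lowest Slamf6. Among the Y-high libraries Slamf1 was at 5199 in CBP-KO and between 5802 and 6123 in WT, and among the Xist-high libraries between 3603 and 4371 in CBP-KO and between 5474 and 6393 in WT. Slamf7 was at 27494 in the Y-high CBP-KO library, against 21661 and 22494 in the Y-high WT libraries, and between 24411 and 24985 against between 20229 and 22036 in the Xist-high ones. Sh2d1b1 was at 99.0 in CBP-KO and 157 in p300-KO among the Y-high libraries, against 566 and 820.2 in WT. The Y-high p300-KO library had Cd84 at 1566, against 2085 and 2339 in the Y-high WT libraries. With sex as a covariate, the calls of the members against WT stayed at 3 in each knockout. These libraries are few in each class, and the classes were not compared with each other.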
